A study of Mus musculus with 6 samples.

Results

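Long terminal repeat (LTR) retrotransposons outside the murine leukemia virus element MuLV-int carried 522 of the 17901 H3K9ac peaks in lung endothelial cells, or 2.92%. They are the peaks whose deposited annotation names a repeat of the LTR class under another element name than MuLV-int. That rule reads no measured value, but it was set with earlier results of these data known. The mark had been profiled by CUT&RUN, in which a nuclease releases the DNA beneath an antibody, in endothelial cells isolated from mouse lung. The labels divide 6 libraries into 3 from WT mice, which are Cre-negative, and 3 from CSE-KO mice, which are Cre-positive. CSE, the product of the gene Cth, is cystathionine gamma-lyase and releases cysteine from cystathionine. The labels used here name neither the Cre driver nor the allele, age, sex or strain, and do not say whether separate animals gave the libraries of a group. The p-values therefore measure only how much these libraries vary, which may be technical in origin. No peak of the table was assigned to Cth, so the targeted gene does not check the labels.

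LTR retrotransposons are remnants of retroviruses that entered the germ line. A complete copy holds an internal part with the viral genes between a pair of LTRs, and an LTR contains its own promoter and a polyadenylation signal. Most copies have recombined to a lone LTR, some of which act as promoters or enhancers of nearby genes. In somatic cells such elements are usually silenced by KRAB zinc finger proteins, TRIM28, SETDB1, H3K9 methylation and DNA methylation. Acetylation of the same lysine, H3K9ac, marks active promoters and enhancers. The ERV1 family includes elements related to murine leukemia virus and the VL30 elements. ERVK holds the intracisternal A particles, ERVL holds MERVL, known for its activity in the early embryo, and ERVL-MaLR holds the old, non-coding ORR1, MT and MLT elements.

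For 18 LTR peaks the peak reached into the promoter window of a gene, taken from RefSeq on GRCm38.p6 as 250 bases before to 50 after the start. These 18 peaks touched 19 windows. At 3 of them the centre of the peak lay inside the window, and these are shown here. The peak on an ORR1F element was centred 188 bp before the start of Gm31904 (window chr10:10234829-10235128, minus strand). The peak on an MLT1L element was centred 159 bp before that of Gm51656 (chr9:96463754-96464053, plus strand). A peak on an internal MLT element was centred 247 bp before that of Smim14 (chr5:65484012-65484311, minus strand). In the deposited annotation none of these 3 peaks lay within 1 kb of its nearest start. That start was 14830 bp from the MLT1L peak and 8527 bp from the internal MLT peak. In each sequence, written 5′ to 3′, capitals mark the searched motifs that were found on either strand.
Gm31904: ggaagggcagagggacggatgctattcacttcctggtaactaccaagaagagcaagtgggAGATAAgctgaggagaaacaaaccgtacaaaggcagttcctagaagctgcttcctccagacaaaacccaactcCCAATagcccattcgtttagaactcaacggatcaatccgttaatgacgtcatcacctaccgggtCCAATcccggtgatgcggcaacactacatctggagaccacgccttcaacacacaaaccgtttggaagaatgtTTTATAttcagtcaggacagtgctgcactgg
Gm51656: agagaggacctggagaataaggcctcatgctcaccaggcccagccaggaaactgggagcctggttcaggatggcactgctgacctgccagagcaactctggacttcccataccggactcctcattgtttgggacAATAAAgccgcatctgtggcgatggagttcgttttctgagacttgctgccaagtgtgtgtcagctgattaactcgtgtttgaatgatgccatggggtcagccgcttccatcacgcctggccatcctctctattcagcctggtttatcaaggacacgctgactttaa
Smim14: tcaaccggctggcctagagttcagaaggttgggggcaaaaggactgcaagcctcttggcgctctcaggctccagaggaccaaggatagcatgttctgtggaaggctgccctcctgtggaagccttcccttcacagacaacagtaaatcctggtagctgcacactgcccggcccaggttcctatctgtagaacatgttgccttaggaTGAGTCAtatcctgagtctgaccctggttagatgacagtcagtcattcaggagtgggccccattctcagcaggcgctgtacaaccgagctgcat
The Gm31904 window held 2 copies of the CCAAT box, a GATA motif (AGATAA) and a TATA box core (TATAAA, here on the reverse strand). This TATA box core lay downstream of the Gm31904 start and outside the peak, while the other motifs of that window lay inside the peak. The window of Gm51656 held AATAAA, the polyadenylation signal, inside its peak. That of Smim14 held the AP-1 motif TGACTCA, outside its peak. The peak at Gm31904 had 25.7, 13.2 and 26.9 CPM in the WT libraries, in order of replicate, and 19.0, 25.4 and 10.3 in the CSE-KO libraries, with overlapping groups. CPM here are read counts per library after TMM scaling to the same total. The 2 peaks at Gm51656 and Smim14 were too low to be tested, with mean levels of 10.2 and 11.2 CPM. At Smim14 the values were 10.6, 3.30 and 6.72 CPM in WT and 18.1, 11.9 and 16.3 in CSE-KO, without overlap. They rest on a mean of 8.67 reads per library, and 13.0% of all tested peaks did not overlap.

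A second set of promoters comes from zinc finger gene clusters. On chromosome 13, RLTR22_Mur peaks reached the windows of Zfp808, Zfp935 and Gm36298, and on chromosome 2, RMER17B peaks reached those of Gm14326, Zfp931 and Gm14403. Both elements belong to ERVK. The sequences of 2 genes from each cluster are shown because they carry a shared stretch and the CCAAT box, in capitals on either strand. Capitals in the Zfp935 window also mark 1 ETS core, CCGGAA on the reverse strand. The windows are chr13:62129640-62129939 on the plus strand (Zfp808), chr13:62466763-62467062 on the minus strand (Zfp935), chr2:177957239-177957538 on the minus strand (Gm14326) and chr2:178078376-178078675 on the minus strand (Zfp931).
Zfp808: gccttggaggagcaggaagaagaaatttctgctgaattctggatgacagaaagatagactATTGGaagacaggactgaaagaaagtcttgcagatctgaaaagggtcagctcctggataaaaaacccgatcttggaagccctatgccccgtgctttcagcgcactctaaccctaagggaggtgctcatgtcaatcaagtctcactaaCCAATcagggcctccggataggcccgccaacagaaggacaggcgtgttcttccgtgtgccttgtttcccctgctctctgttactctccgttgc
Zfp935: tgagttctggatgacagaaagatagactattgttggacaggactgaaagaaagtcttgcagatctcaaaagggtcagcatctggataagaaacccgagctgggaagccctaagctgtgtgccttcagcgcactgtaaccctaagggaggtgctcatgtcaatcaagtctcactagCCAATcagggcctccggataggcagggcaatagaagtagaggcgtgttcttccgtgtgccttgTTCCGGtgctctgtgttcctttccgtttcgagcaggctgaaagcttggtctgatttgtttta
Gm14326: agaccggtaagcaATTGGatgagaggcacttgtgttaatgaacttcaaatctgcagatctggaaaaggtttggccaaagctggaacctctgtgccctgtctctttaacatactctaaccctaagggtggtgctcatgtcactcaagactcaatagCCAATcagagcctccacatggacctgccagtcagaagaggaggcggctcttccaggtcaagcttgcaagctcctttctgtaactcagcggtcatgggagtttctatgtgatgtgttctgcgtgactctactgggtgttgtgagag
Zfp931: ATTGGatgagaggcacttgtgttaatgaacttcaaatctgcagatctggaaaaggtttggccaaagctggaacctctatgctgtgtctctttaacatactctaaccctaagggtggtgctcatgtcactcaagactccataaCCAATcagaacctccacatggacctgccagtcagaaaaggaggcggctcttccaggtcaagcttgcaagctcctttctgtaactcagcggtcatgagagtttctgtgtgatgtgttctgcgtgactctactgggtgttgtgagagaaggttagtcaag
All 6 windows held CCAAT, and all 6 held the 12-base run taaccctaaggg, which 48 of the 32851 RefSeq windows contain. In the RLTR22_Mur windows this run and a CCAAT lay inside the peak. In the RMER17B windows the run and every CCAAT lay upstream of the peak, outside it. The 3 RLTR22_Mur windows were 71.8% to 85.6% identical to each other in pairwise alignment, and the 3 RMER17B windows 80.6% to 88.8%. The RMER17B windows shared a run of 54 bases, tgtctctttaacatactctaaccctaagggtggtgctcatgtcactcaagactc, found in 20 RefSeq windows. The reads were 36 bases long, per the labels' protocols, so a read inside that run matches several genes. That 54-base run lay upstream of the RMER17B peaks, outside them. How far reads inside the peaks match other copies was not tested.

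Over all 19 windows, CCAAT was present in 12 (63.2%), against 37.4% of the 32851 windows in the table. Of these 12, 7 are windows at the RLTR22_Mur and RMER17B peaks: the 6 above and that of Gm35319, which overlaps the Zfp931 window on the other strand and holds 1 of its CCAAT sites again. The other 12 windows held CCAAT in 5 (41.7%). The ETS core CCGGAA was present in 3 windows (15.8%, against 14.9%), TATAAA in 2 (10.5%, against 13.6%), AATAAA in 2 (against 19.6%) and the RUNX motif TGTGGT in 2 (against 16.8%). TGACTCA was in 1 (against 5.20%), the E-box CACGTG in 1 (against 7.15%) and AGATAA in 1 (against 11.2%). Both strands were searched, and no motif holds another, though TATAAA and AATAAA end alike. The median GC content was 49.3% in the 19 windows and 52.7% in all windows. A match is a description of letters and was not tied to binding.

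The 6 promoter peaks of the zinc finger clusters had reads in every library, down to 6.60 CPM at Gm14403, and none passed the test between genotypes. Zfp935, the highest, had 45.4, 115 and 60.5 CPM in WT and 76.0, 77.6 and 57.7 in CSE-KO (a log2 fold change of 0.06 with SE 0.27). Zfp808 had 39.4, 52.8 and 43.7 CPM in WT and 39.7, 62.7 and 37.0 in CSE-KO (0.05, SE 0.31). The peak at Gm36298, whose nearest start in the deposited annotation is 6720489N17Rik, had 22.7, 16.5 and 25.2 CPM in WT and 38.0, 37.3 and 19.2 in CSE-KO (0.53, SE 0.39). The groups overlapped at all 3 of these RLTR22_Mur peaks, as they did at another 267 bp inside Zfp934 in the same cluster (-0.07, SE 0.40). On chromosome 2, Gm14326 had 42.4, 39.6 and 26.9 CPM in WT and 20.7, 32.8 and 31.1 in CSE-KO (-0.38, SE 0.36). Zfp931 had 36.3, 16.5 and 21.8 CPM and 32.0, 28.4 and 22.2 CPM (0.09, SE 0.39). Gm14403 had 15.1, 6.60 and 11.8 CPM in WT and 15.6, 23.9 and 23.7 in CSE-KO (0.78, SE 0.50), and only there did the groups not overlap. Of all tested peaks, 13.0% did not overlap. The smallest adjusted p among the 6 was 0.78 (edgeR quasi-likelihood test, Benjamini-Hochberg over all peaks).

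Of the 522 LTR peaks, 409 lay on LTR sequence and 113 on internal parts. ERVL-MaLR held 218 peaks, ERVK 129, ERV1 101 and ERVL 70. Another 3 were on Gypsy elements and 1 on an element annotated Gypsy?. There were 180 element names, of which 100 had a single peak and 10 had 10 or more. Those 10 names held 183 peaks: ORR1E with 30, RLTR4_MM-int with 29, ORR1F with 21, MMVL30-int with 20, MTD with 19, IAPEz-int and MTC with 15 each, MTE2b and RMER15 with 12 each, and MTEa with 10. The peaks were spread over the genome, with 49 on chromosome 2, 7 on X and 0 on Y. Only 10 had another LTR peak within 10 kb.

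LTR peaks lay farther from gene starts than peaks of the whole table and were lower, as were LINE peaks. By the deposited annotation 298 were intergenic and 224 intronic, 85 of the latter in a first intron. The median distance of a peak's centre to the nearest start was 25744 bp, with 18 peaks within 1 kb. It was 40789.5 bp for LINE peaks and 13930 bp for SINE peaks. For distal peaks without a repeat (farther than 1 kb from a start) it was 24300 bp. Within 10 kb lay 110 (21.1%), against 58.8% of all peaks, and beyond 50 kb lay 170 (32.6%), against 16.5% of all peaks. All LTR peaks were intronic or intergenic, while the whole table holds other classes too, so these 2 sets differ in class as well. Among intergenic peaks, 16.8% of the LTR peaks and 19.3% of all lay within 10 kb. Among intronic peaks these shares were 26.8% and 56.4%. The median level was 24.1 CPM (range 7.35 to 160), against 42.4 for all peaks. LTR peaks were narrower too, at a median of 528.5 bp (240 to 2548) against 817 bp. LINE peaks had medians of 21.9 CPM and 474 bp, and SINE peaks 36.9 CPM and 731.5 bp. Distal peaks without a repeat had 32.0 CPM and 650 bp. Per length, their median level was 44.0 CPM per kb, beside 43.3 for 414 LINE peaks, 50.4 for 490 SINE peaks, and 48.5 for 7957 peaks farther than 1 kb from a start with no repeat annotation. The lowest LTR peak stood at 30.4 CPM per kb, which was also the lowest of the table, so weaker LTR signal is not in view here.

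The medians of the families in level per length lay close together, at 42.0 CPM per kb for ERV1, 42.6 for ERVK, 42.3 for ERVL and 45.3 for ERVL-MaLR. LTR sequence had a median of 45.2 CPM per kb and internal parts 39.0. The highest per length was an RLTR20C2_MM peak 12.2 kb from the start of Pisd, at 156 CPM per kb. Next came an ORR1D1 peak in Mylip (125), the RLTR4_MM-int peak in Chd9 (122) and the RLTR31D_MM peak in Gnai2 (117).

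**Figure D1:**
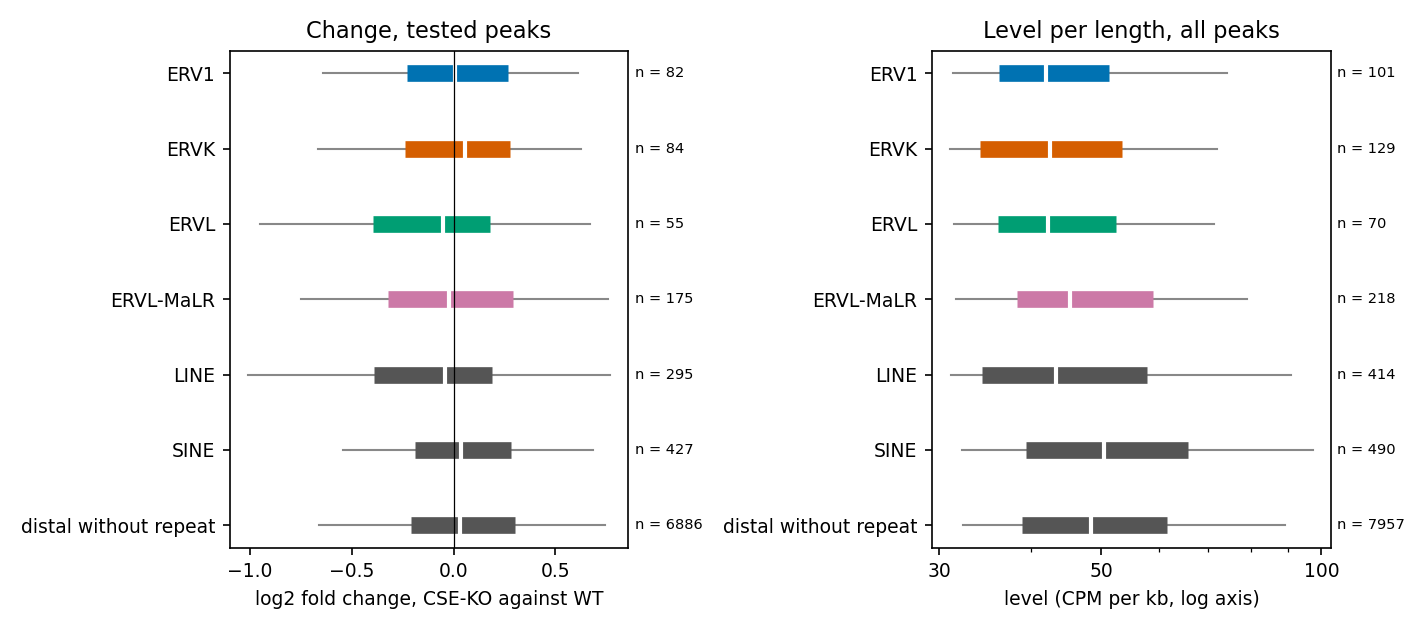
Change and level of LTR peaks by family, beside LINE, SINE and distal peaks without a repeat. Left, log2 fold change of CSE-KO against WT over the tested peaks. Right, mean level over 6 libraries in CPM per kb on a log axis over all peaks. Bars run from the lower to the upper quartile, lines from the 5th to the 95th percentile, and white marks are medians. The medians of change lie between -0.053 and 0.055 in the 4 LTR families.

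The share of all counts that fell in LTR peaks differed between genotypes by less than the spread between libraries. It was 1.58%, 1.62% and 1.61% in the WT libraries and 1.58%, 1.58% and 1.61% in those of CSE-KO. The means were 1.60% ± 0.024 for WT and 1.59% ± 0.019 for CSE-KO (SD, n = 3 each). By family the shares were 0.331% ± 0.016 and 0.327% ± 0.012 for ERV1, and 0.353% ± 0.017 and 0.347% ± 0.015 for ERVK. ERVL had 0.214% ± 0.017 and 0.211% ± 0.0044, and ERVL-MaLR 0.685% ± 0.025 and 0.686% ± 0.012. By contrast the 6 MuLV-int peaks held 0.244%, 0.377% and 0.339% of the counts in WT and 0.0055%, 0.010% and 0.0089% in CSE-KO.

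No LTR peak outside MuLV-int passed the test. Of the 522, 400 had enough counts to be tested (76.6%) and 122 did not, with a median of 7.5 counts per library against 21.1 for the tested ones. None of the 400 reached an adjusted p under 0.05 in edgeR's quasi-likelihood test with Benjamini-Hochberg adjustment over all 16134 tested peaks, where 14 peaks (0.0868%) were called. The smallest adjusted p was 0.172. DESeq2 and voom also called 0 LTR peaks. A median LTR peak had an SE of 0.37 on the log2 scale, against 0.30 for all peaks and 0.38 for LINE peaks, of which 1 was called. The part of depth in the count of 0 was not tested. The 6 MuLV-int peaks were all called, at a median log2 fold change of -5.27 (range -6.57 to -3.28). The nearest LTR peak on another element lay 511 kb or more from each of them. Input DNA was not analysed here, so at MuLV-int less acetylation and a missing provirus cannot be told apart.

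At an unadjusted p under 0.05, 14 of 400 LTR peaks were higher in CSE-KO (3.5%), where 3.01% of all tested peaks were, and 20 were lower (5.0%), where 4.07% of all were. DESeq2 put 5 higher and 11 lower at that level (4.0% of LTR peaks, against 3.51% of all), and voom 14 and 25 (9.75%, against 7.75% of all). Groups that did not overlap were found at 24 LTR peaks higher in CSE-KO, where 6.09% of all tested peaks were, and at 25 lower, where 6.9% were. Together these were 12.25% of LTR peaks and 13.0% of all peaks. These shares lie near those of the whole table. Among peaks with a mean count of at least 50, 5 of 25 LTR peaks had an unadjusted p under 0.05 (20%), against 5.97% of all such peaks. LINE peaks had 36 of 295 at an unadjusted p under 0.05 (12.2%), SINE peaks 21 of 427 (4.92%) and distal peaks without a repeat 572 of 6886 (8.31%).

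The fold changes of LTR peaks were centred on 0. Their median log2 fold change was 0.0029, with quartiles of -0.29 and 0.28, and 202 lay above 0 and 198 below (50.5% above, against 49.9% of all peaks). Within 0.5 of 0 lay 303 (75.8%), against 83.5% of all. The medians were 0.01 for ERV1 (42 of 82 above 0), 0.05 for ERVK (47 of 84), -0.05 for ERVL (24 of 55) and -0.02 for ERVL-MaLR (86 of 175). LTR sequence had a median of -0.0037 over 328 peaks and internal parts 0.01 over 72. Intronic LTR peaks had a median of 0.06, with 100 of 177 above 0, and intergenic ones -0.03, with 102 of 223 above 0. The same medians over all peaks were 0.02 in introns and -0.01 between genes. At an unadjusted p under 0.05, 11 intronic LTR peaks were higher and 8 lower, while 3 intergenic ones were higher and 12 lower. These are 6.21% and 4.52% of the intronic LTR peaks, beside 3.43% and 3.96% of all intronic peaks, and 1.35% and 5.38% of the intergenic ones, beside 2.75% and 5.11% of all intergenic peaks. Whether the positions differ in response was not tested.

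**Figure D2:**
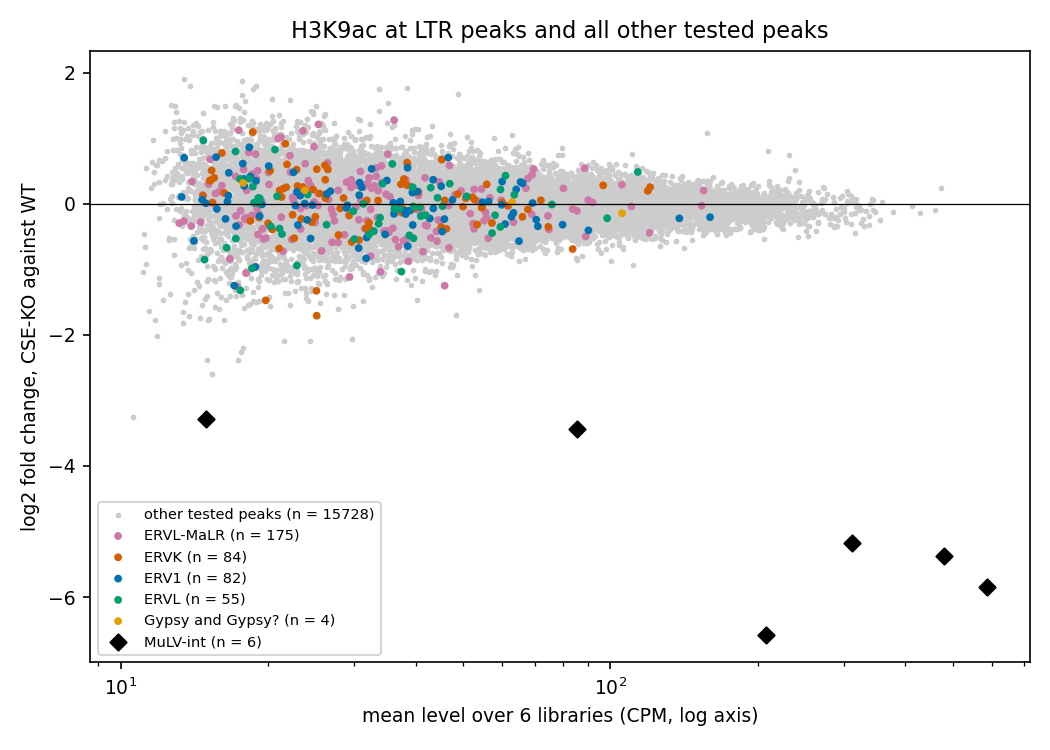
Log2 fold change of CSE-KO against WT plotted against mean level (CPM, log axis) for every tested peak. The 400 tested LTR peaks, coloured by family, lie between -1.71 and 1.28 within the cloud of other peaks, and the 6 MuLV-int peaks (black diamonds) lie between -6.57 and -3.28.

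Among ERV1 elements, RLTR4_MM-int is an internal sequence related to murine leukemia virus, as MuLV-int is. Its 29 peaks summed to 902, 1095 and 1163 CPM in WT and 1202, 764 and 1026 in CSE-KO, and the groups overlapped. The MuLV-int peaks summed to 2501, 3900 and 3474 CPM in WT and 55.3, 106 and 90.2 in CSE-KO. Of 24 tested RLTR4_MM-int peaks, 11 lay above 0 (45.8%, against 49.9% of all tested peaks). At an unadjusted p under 0.05 in edgeR there were 0 of the 24, where 7.08% of all tested peaks were. The median log2 fold change of the 24 was -0.02 (range -0.56 to 0.86). This median ran from -0.27, without CSE-KO replicate 1, to 0.22, without CSE-KO replicate 2.

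The 2 highest peaks of ERV1 were RLTR4_MM-int copies. The highest LTR peak of all, at 160 CPM, lay at chr4:133095751-133097368, 34.1 kb upstream of Wasf2, which encodes the actin regulator WAVE2. It had 159, 148 and 202 CPM in WT and 141, 143 and 166 in CSE-KO (a log2 fold change of -0.20 with SE 0.17, edgeR adjusted p = 0.85). The copy in intron 2 of Chd9, a chromatin remodeller, had 127, 139 and 180 CPM in WT and 129, 112 and 143 in CSE-KO (-0.22, SE 0.18). The groups overlapped at both. An RLTR23 peak 13.0 kb upstream of Rtn4, which shapes the endoplasmic reticulum, had 98.4, 122 and 89.0 CPM in WT and 66.5, 89.5 and 75.4 in CSE-KO (-0.40, SE 0.22, adjusted p = 0.74). The groups overlapped there only because WT replicate 3 lay just below CSE-KO replicate 2. The RLTR30E_MM peak in intron 7 of Atp6v1h, a subunit of the vacuolar proton pump, had 101, 115 and 53.8 CPM in WT and 77.8, 68.7 and 62.1 in CSE-KO, with overlap (-0.32, SE 0.25).

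MMVL30-int is the internal part of VL30, a retrovirus-like element that lacks working viral genes and is known for transcription in many mouse cells. Its 20 peaks had a median width of 879.5 bp and summed to 684, 713 and 835 CPM in WT and 665, 893 and 862 in CSE-KO. The lowest and the highest sum were both CSE-KO. Of 17 tested copies, 13 lay above 0 (76.5%, against 49.9% of all tested peaks), and the median log2 fold change was 0.22 (range -0.57 to 0.71). The median was lowest, at 0.07, without CSE-KO replicate 3 and highest, at 0.38, without WT replicate 3. At an unadjusted p under 0.05 in edgeR, 1 copy was higher and 1 lower (5.88% each of the 17). Of all tested peaks 3.01% were higher and 4.07% lower at that level. A copy 19.4 kb upstream of Hnrnpa3, an RNA-binding protein gene, was the 1 copy higher in CSE-KO at an unadjusted p under 0.05. It had 21.2, 33.0 and 52.1 CPM in WT and 57.9, 46.3 and 69.5 in CSE-KO (0.71, SE 0.32, unadjusted p = 0.031, adjusted p = 0.67). In the other direction, a copy 6.67 kb upstream of Dhx40, an RNA helicase gene, had 81.8, 89.1 and 62.2 CPM in WT and 41.5, 64.2 and 51.8 in CSE-KO (-0.57, SE 0.27, unadjusted p = 0.038, adjusted p = 0.68). The groups overlapped at both, and both copies were picked after their values were seen. The highest copy, at chr10:47453460-47455446, had 43.9, 59.4 and 72.2 CPM in WT and 53.6, 92.5 and 75.4 in CSE-KO (0.32, SE 0.27).

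ERVK includes IAPEz-int, the internal part of the intracisternal A particle, a mobile element that mouse cells silence through H3K9 methylation and DNA methylation. Its 15 peaks were among the lowest, at 7.99 to 21.1 CPM, and only 2 could be tested. They summed to 109, 317 and 260 CPM in WT and to 98.5, 181 and 158 in CSE-KO, with overlapping groups. Replicate 1 was lowest in both genotypes, and replicate 1 was also the deepest library of each. Replicate 1 was the lowest of both groups at 6 of the 15 peaks (40%), against 13.2% of LTR peaks and 11.5% of all peaks. The part of depth in these values was not tested. The highest copy, 1282 kb from the nearest gene start at chr1:142358188-142358825, had 4.54, 49.5 and 25.2 CPM in WT and 2.59, 22.4 and 22.2 in CSE-KO (a log2 fold change of -0.68 with SE 0.59, edgeR adjusted p = 0.86).

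**Figure D3:**
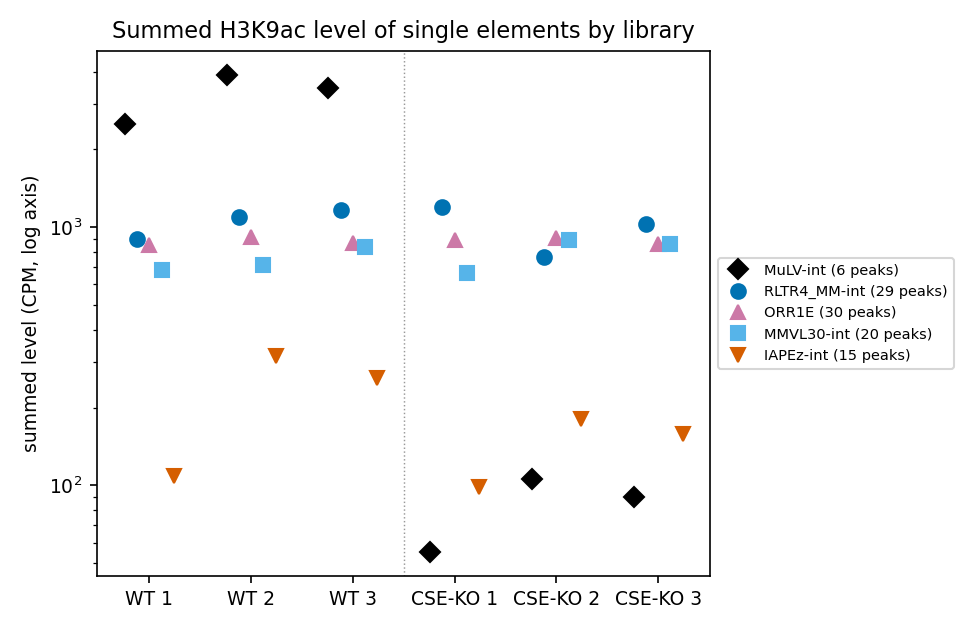
Summed H3K9ac level (CPM, log axis) of 4 frequent LTR elements and of MuLV-int in each of the 6 libraries. Points are single libraries, set slightly apart by element. MuLV-int lies at 2501 CPM or more in WT and at 106 or less in CSE-KO, while the groups overlap for the other 4 elements, and IAPEz-int is lowest in replicate 1 of each genotype.

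The 4 strongest ERVK peaks lay on LTR sequence in first introns. In the first intron of Slfn3, a schlafen gene, an RLTR20B3A_MM peak 648 bp from the start had 114, 132 and 87.4 CPM in WT and 122, 104 and 164 in CSE-KO (a log2 fold change of 0.26 with SE 0.20). An RLTR17B_Mm peak 624 bp inside Cox7a2l, a factor for assembly of respiratory supercomplexes, had 87.8, 112 and 134 CPM in WT and 131, 116 and 133 in CSE-KO (0.20, SE 0.19). An RLTR31D_MM peak 829 bp inside Gnai2, an inhibitory G protein subunit, had 66.6, 89.1 and 106 CPM in WT and 94.2, 95.5 and 129 in CSE-KO (0.28, SE 0.22). All 3 of these peaks had overlapping groups. The exception was an RMER4A peak in the first intron of Tnfrsf26, a receptor gene of the tumor necrosis factor family, at chr7:143624834-143625666. It had 118, 109 and 84.0 CPM in WT and 66.5, 76.1 and 48.8 in CSE-KO, with no overlap (-0.69, SE 0.23, unadjusted p = 0.0048). Its adjusted p was 0.50 in the edgeR test.

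In ERVL the highest peak was also one of those with the smallest p. A peak on the internal part of MERVL_2A, in the first intron of the phosphate transporter gene Slc20a2 (chr8:22490717-22492232, nearest start Smim19), had 83.3, 82.5 and 116 CPM in WT and 133, 139 and 129 in CSE-KO. All CSE-KO libraries lay above all WT libraries (a log2 fold change of 0.49 with SE 0.20, unadjusted p = 0.017, edgeR adjusted p = 0.64). An RMER10A peak 8.25 kb from Gm4262 had 115, 92.4 and 108 CPM in WT and 87.3, 101 and 87.2 in CSE-KO (-0.22, SE 0.21). An RMER15 peak 132 kb from Pwp1, a ribosome biogenesis gene, had 86.3, 42.9 and 94.1 CPM in WT and 83.8, 74.6 and 73.9 in CSE-KO (-0.0096, SE 0.24). It also reached the promoter window of Gm40732. An LTR82B peak 47.1 kb from Cav1, which encodes the coat protein of caveolae, had 53.0, 66.0 and 62.2 CPM in WT and 49.2, 65.7 and 85.8 in CSE-KO (0.14, SE 0.27). At these 3 peaks WT and CSE-KO overlapped.

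ERVL-MaLR, the largest family, held the 2 highest peaks after the RLTR4_MM-int copy near Wasf2. An MLT1J peak 16.1 kb upstream of Itpripl2 had 142, 158 and 134 CPM in WT and 168, 157 and 170 in CSE-KO (a log2 fold change of 0.20 with SE 0.17). An ORR1B2 peak at chr3:137330907-137332694, 9.28 kb upstream of Emcn, the gene of the endothelial surface protein endomucin, had 179, 145 and 139 CPM in WT and 156, 122 and 180 in CSE-KO (-0.03, SE 0.18). The groups overlapped at both. An ORR1E peak in intron 2 of 2310001H17Rik had 133, 109 and 92.4 CPM in WT and 111, 130 and 87.2 in CSE-KO, with overlap too (-0.04, SE 0.20).

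Cfdp1, a gene linked to craniofacial development, had 2 MaLR peaks in intron 5 with opposite signs. The MTC copy at chr8:111819711-111822016 had 156, 152 and 114 CPM in WT and 137, 88.1 and 73.9 in CSE-KO (a log2 fold change of -0.44 with SE 0.21, unadjusted p = 0.037, edgeR adjusted p = 0.68). The MTEa copy at chr8:111785220-111786069, whose nearest start is that of Bcar1, had 34.8, 42.9 and 37.0 CPM in WT and 67.4, 49.3 and 50.3 in CSE-KO (0.59, SE 0.30, unadjusted p = 0.055). The groups overlapped at the first and not at the second. The ORR1F peak in the first intron of the kinase gene Cdk17 had 90.8, 106 and 114 CPM in WT and 57.0, 97.0 and 69.5 in CSE-KO, where 1 CSE-KO library lay among those of WT (-0.50, SE 0.23, unadjusted p = 0.035).

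**Figure D4:**
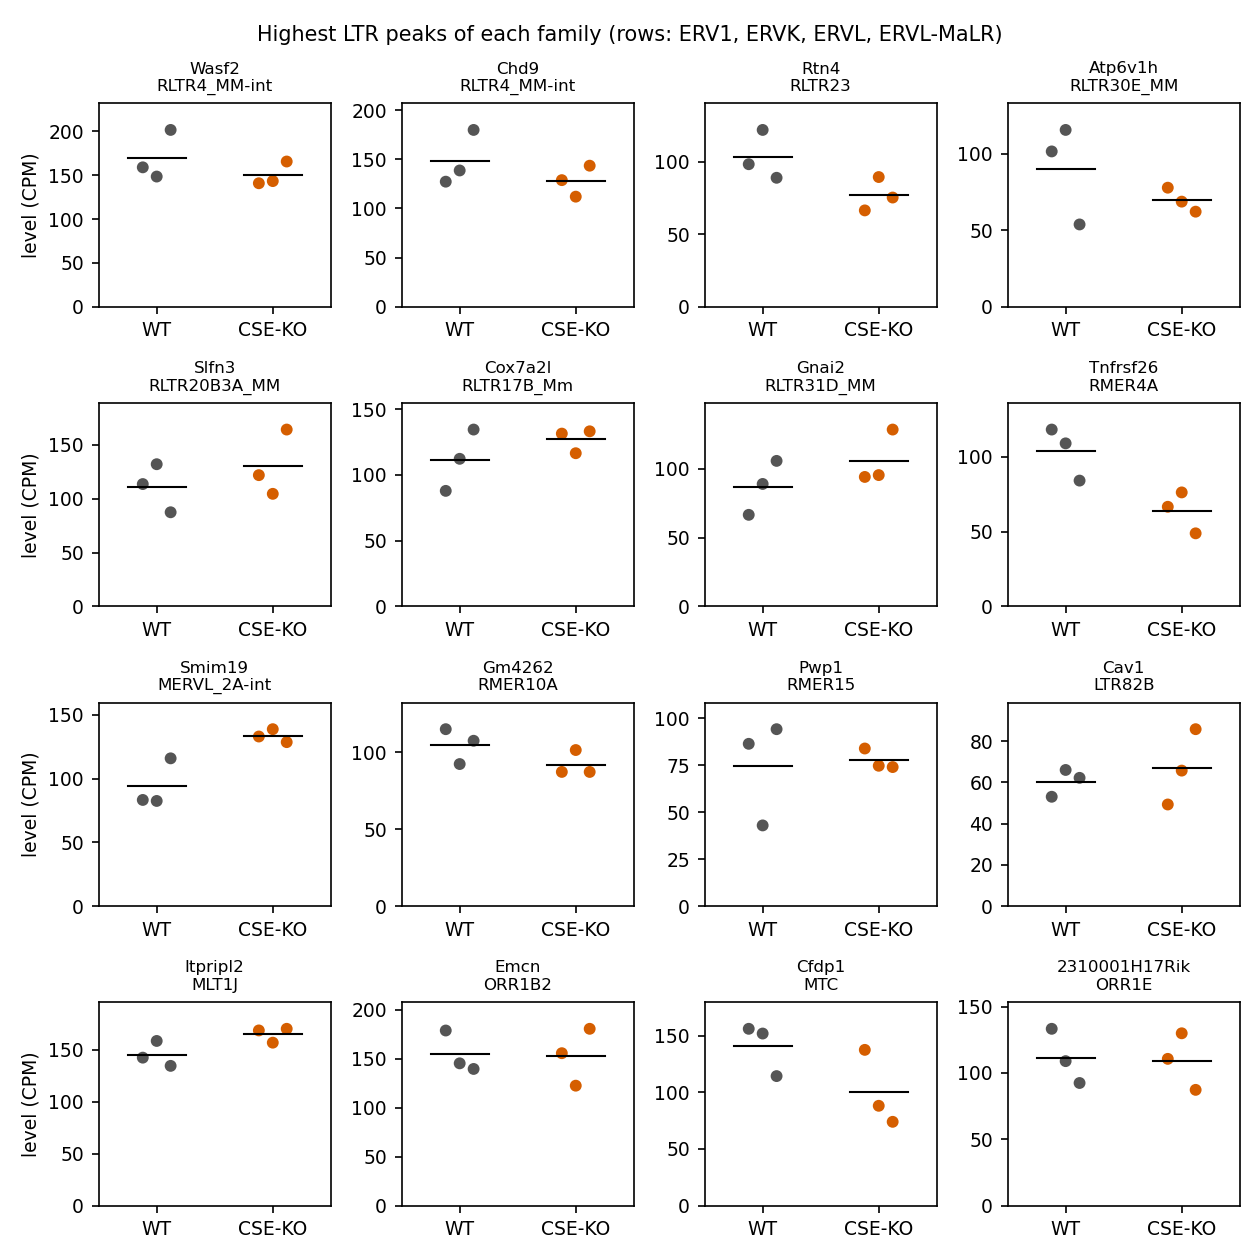
Level (CPM) in each library for the 4 highest LTR peaks of each family, named by nearest gene and element. Rows from top to bottom are ERV1, ERVK, ERVL and ERVL-MaLR, points are libraries in order of replicate, and lines are group means of 3. The groups do not overlap at the Tnfrsf26 and Smim19 peaks and overlap at the other 14.

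The Gypsy peaks named here showed no change past the test. An LTR81C peak in 5430421F17Rik had 127, 85.8 and 113 CPM in WT and 79.5, 118 and 111 in CSE-KO (a log2 fold change of -0.14 with SE 0.21). A MamGypLTR1c peak 14.7 kb from Gpr65, a proton-sensing receptor gene, had 54.5, 56.1 and 75.6 CPM in WT and 63.9, 71.6 and 56.2 in CSE-KO (0.03, SE 0.26). The LTR88c peak 15.3 kb upstream of the transcription factor gene Sp3 had 24.2, 9.90 and 11.8 CPM in WT and 20.7, 16.4 and 23.7 in CSE-KO (0.32, SE 0.47). WT and CSE-KO overlapped at each.

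The smallest p of any LTR peak came from an MLT1C element at chr3:38283668-38284529, 76.0 kb from 5430434I15Rik. It had 74.2, 66.0 and 53.8 CPM in WT and 27.6, 38.8 and 14.8 in CSE-KO, so every CSE-KO library lay below every WT library. Its log2 fold change was -1.25 (SE 0.32, unadjusted p = 3.2e-04, edgeR adjusted p = 0.172). The next was the RLTR17B_Mm peak in the first intron of Adora1, an adenosine receptor gene, with 16.7, 19.8 and 79.0 CPM in WT and 14.7, 2.98 and 17.7 in CSE-KO (-1.71, SE 0.49, adjusted p = 0.37). One library, WT replicate 3, stood above the other 5 there, and the groups overlapped.

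The other 3 on the lower side lay far from gene starts. An RLTR33 peak 280 kb from Angpt1, which encodes a ligand of the endothelial receptor TEK, had 22.7, 46.2 and 40.3 CPM in WT and 14.7, 11.9 and 14.8 in CSE-KO (a log2 fold change of -1.33 with SE 0.43, edgeR adjusted p = 0.45). An RLTR18B peak 409 kb from 1700066C05Rik had 39.4, 26.4 and 20.2 CPM in WT and 6.05, 11.9 and 14.8 in CSE-KO (-1.47, SE 0.49). An RMER15 peak 165 kb from Klhl1 had 59.0, 46.2 and 45.4 CPM in WT and 25.1, 14.9 and 34.0 in CSE-KO (-1.03, SE 0.34). The groups did not overlap at any of the 3.

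On the higher side, the smallest p was at an ORR1E peak in intron 17 of Eef2k, a kinase of the translation elongation factor (nearest start Polr3e, chr7:120901311-120902106). It had 9.08, 16.5 and 37.0 CPM in WT and 53.6, 40.3 and 60.6 in CSE-KO, without overlap (a log2 fold change of 1.28 with SE 0.37, unadjusted p = 0.0013, edgeR adjusted p = 0.37). The MTEb peak in the first intron of Ube2ql1, a gene of the ubiquitin-conjugating family, had 6.06, 26.4 and 16.8 CPM in WT and 34.6, 23.9 and 44.4 in CSE-KO, with overlap (1.21, SE 0.45). The MLT1F1 peak in the first intron of Ctnnal1, a catenin-like gene, had 12.1, 13.2 and 18.5 CPM in WT and 27.6, 41.8 and 28.1 in CSE-KO (1.12, SE 0.43). An MTC peak 12.2 kb from Pde6h had 74.2, 49.5 and 87.4 CPM in WT and 105, 88.1 and 127 in CSE-KO (0.55, SE 0.23). The groups did not overlap at the last 2, and the adjusted p was 0.60 to 0.64 for the last 3 in the edgeR test.

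**Figure D5:**
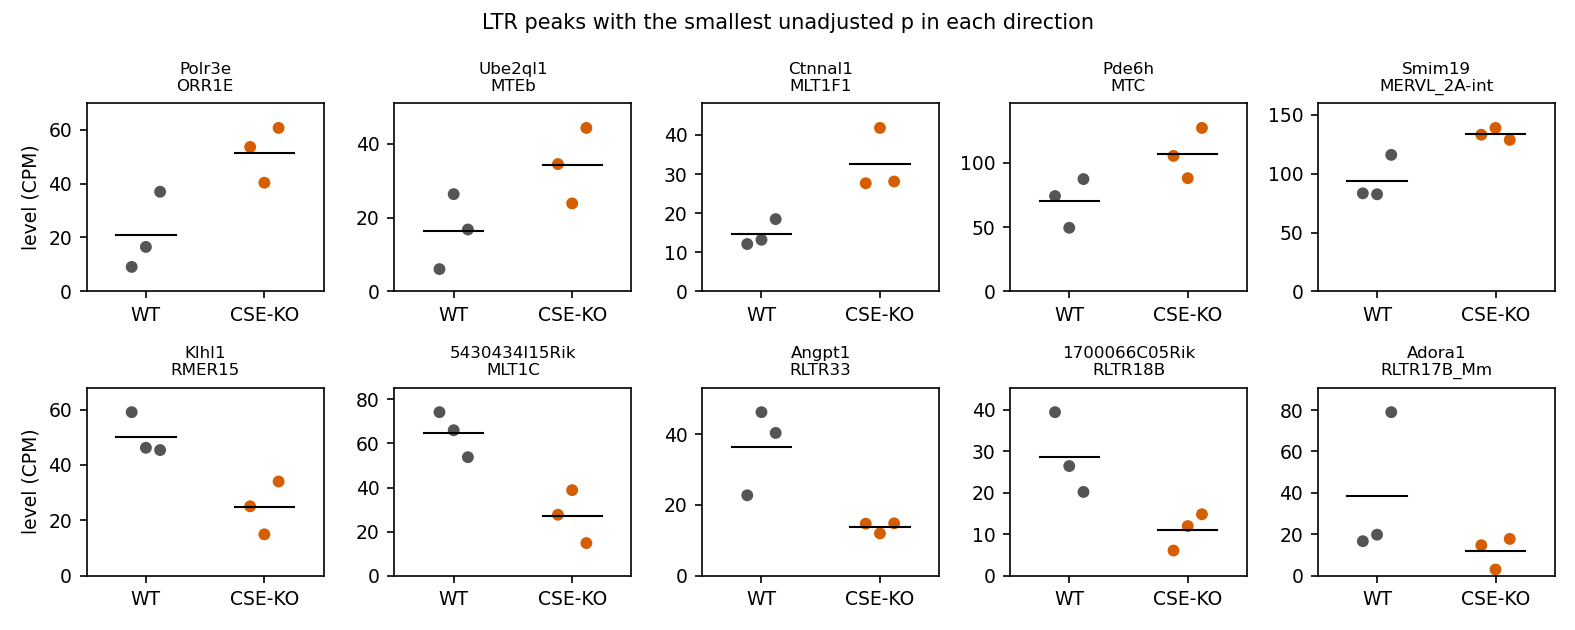
Level (CPM) in each library of the 5 LTR peaks with the smallest unadjusted p in each direction, higher in CSE-KO in the top row and lower in the bottom row. Points are libraries in order of replicate and lines are group means of 3. The groups overlap at the Ube2ql1 and Adora1 peaks and not at the other 8, and none of the 10 passed the adjusted test.

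Peaks within 500 bp of a start showed no change past the test. An MTE2b peak 448 bp inside Exog, a mitochondrial nuclease gene, had 43.9, 89.1 and 87.4 CPM in WT and 52.7, 85.1 and 56.2 in CSE-KO (a log2 fold change of -0.16 with SE 0.27). An MTD peak 377 bp inside Rbm19, an RNA-binding protein gene, had 54.5, 42.9 and 63.8 CPM in WT and 48.4, 23.9 and 76.9 in CSE-KO (-0.15, SE 0.31). An RMER10B peak 432 bp inside Ifi27, an interferon-induced gene, had 33.3, 49.5 and 31.9 CPM in WT and 38.0, 29.9 and 19.2 in CSE-KO (-0.30, SE 0.36). None of the 3 separated the genotypes. Nor did an MTD peak 461 bp inside Mtpap, a mitochondrial poly(A) polymerase gene, with 66.6, 95.7 and 30.2 CPM in WT and 82.9, 68.7 and 59.1 in CSE-KO (0.24, SE 0.28). The highest MTD peak, in intron 3 of Mta3, a gene of the NuRD corepressor complex, had 68.1, 115 and 45.4 CPM in WT and 82.9, 70.1 and 99.1 in CSE-KO, with overlap (0.24, SE 0.26). Among element names with 3 to 9 peaks, the highest copy of each gave 39 peaks, of which 38 were tested. Their log2 fold changes ran from -1.03 to 0.76 with a median of -0.05, 15 lay above 0, and the smallest adjusted p was 0.57.

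An LTR peak lay at 3 of the 12 endothelial marker genes. Besides that near Emcn, an ORR1F peak lay in intron 2 of Cdh5, which encodes VE-cadherin, at chr8:104116448-104116856. It had 10.6, 16.5 and 15.1 CPM in WT and 19.9, 31.3 and 34.0 in CSE-KO, without overlap (a log2 fold change of 1.02 with SE 0.46, unadjusted p = 0.032, edgeR adjusted p = 0.67). These levels rest on 5 to 9 reads per library in WT and 21 to 23 in CSE-KO. An ORR1E peak in the first intron of Tek, the angiopoietin receptor, averaged 15.0 CPM and was too low to test. The promoter peak of Cdh5 lay the other way, also without overlap, with 239, 290 and 237 CPM in WT and 193, 193 and 197 in CSE-KO (-0.38, SE 0.15, unadjusted p = 0.014, adjusted p = 0.62). All 12 endothelial marker genes had a peak in the table, and 7 had a promoter peak. Of these 7, the one at Tie1, a receptor gene related to Tek, was the other at an unadjusted p under 0.05, and it was higher in CSE-KO (0.70, SE 0.29, unadjusted p = 0.021, adjusted p = 0.64). Cdh5 and Tie1 made 2 of the 7 at that level in edgeR, where 7.08% of all tested peaks were. The 7 summed to 942 to 960 CPM in WT and 854 to 957 in CSE-KO.

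Markers of other lung cells were measured in the same way. None of 7 leukocyte, 6 epithelial and 7 fibroblast or mural markers had a promoter peak, and 14 of the 20 had no peak at all. The other 6 genes (Csf1r, Epcam, Cdh1, Krt8, Scgb1a1 and Col1a1) had 10 peaks, all more than 1 kb from a start. The 1 leukocyte peak had 16.7 to 39.6 CPM in WT and 21.6 to 23.9 in CSE-KO, and the 8 epithelial peaks summed to 274 to 306 and 261 to 309 CPM. The 1 fibroblast peak, at Col1a1, had 33.0 to 46.9 and 22.4 to 51.8 CPM. The groups overlapped in all 3 lists. All 38 peaks assigned to the endothelial genes summed to 2438 to 2607 CPM in WT and 2254 to 2527 in CSE-KO. Of the 36 tested, 5 had an unadjusted p under 0.05 in edgeR, where 7.08% of all tested peaks did, and 0 were called. In bulk chromatin, fewer cells carrying the mark and less of it per cell cannot be told apart.

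Most genes of a list known to repress or bind LTR elements, here called silencing genes, carried H3K9ac at their promoters in both genotypes. Of the 40 genes, 36 had a peak, 33 had a promoter peak and 32 of these were tested. None was called by edgeR, DESeq2 or voom. In edgeR the list had 14 above 0, 18 below, a median log2 fold change of -0.11 and 2 genes at an unadjusted p under 0.05, where 7.08% of all tested peaks were. Trim28, the corepressor recruited by KRAB zinc finger proteins, averaged 81.1 ± 7.61 CPM over the WT and 73.0 ± 9.42 CPM over the CSE-KO libraries (SD, n = 3 each). Its log2 fold change was -0.12 (SE 0.23). Setdb1, the H3K9 methyltransferase that TRIM28 recruits, averaged 33.3 ± 12.8 CPM in WT against 49.3 ± 17.3 CPM in CSE-KO (0.53, SE 0.33), and Zfp809, which binds a retroviral primer site, had -0.35 (SE 0.46).

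The 4 silencing genes with the smallest p had mixed signs, and none passed the test. Rcor1, a corepressor that joins a histone demethylase to deacetylases, had 22.7, 46.2 and 48.7 CPM in WT and 64.8, 83.6 and 81.3 in CSE-KO, without overlap (a log2 fold change of 1.00 with SE 0.29, edgeR adjusted p = 0.37). The H3K9 methyltransferase gene Suv39h2 had 22.7, 29.7 and 42.0 CPM in WT and 20.7, 4.48 and 17.7 in CSE-KO, also without overlap (-1.06, SE 0.45, adjusted p = 0.64). Its relative Suv39h1 had 0.64 (SE 0.33, adjusted p = 0.73), and the remodeller gene Smarcad1 -0.35 (SE 0.20, adjusted p = 0.76).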

How the data were processed

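H3K9ac CUT&RUN was measured in 6 libraries, 3 WT and 3 CSE-KO. The authors deposited 1 table that gives, for each peak, the raw read count of every library and its repeat, gene and intron annotation. The submitters' processing notes list STAR 2.7.11a, featureCounts, Trimmomatic 0.39, DESeq2 1.36.0 and Picard 3.1.1, in no stated order. Not given in the sources used here are the peak caller and the handling of reads that match several places, and both bear on counts over repeats. The other 12 columns of per-library values were not used. Total counts per library were 313610 to 676056 in WT and 679938 to 1173016 in CSE-KO.

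The notes name mm39, but the coordinates follow GRCm38: the start implied by the deposited distance lay within 100 bp of a RefSeq GRCm38.p6 start for 397 of 406 LTR peaks whose gene was found. No genome sequence was given for this work, so the sequences are RefSeq promoter windows and not the repeats themselves.

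Counts were tested with edgeR 4.0.16 in R 4.3.3: TMM normalization, glmQLFit and a two-sided glmQLFTest on genotype, after filterByExpr (minimum count 10), and Benjamini-Hochberg adjustment over 16134 peaks with a threshold of 0.05. The script was tested on simulated data. SE values come from the quasi-likelihood F statistic. Chi-square per degree of freedom between libraries of a group was 1.91 to 2.14, above sampling noise, so each counted as 1 replicate. Replicate numbers were not taken to pair the libraries. Deviations of same-numbered libraries correlated at 0.068, 0.014 and 0.0084 across peaks, and those of differently numbered ones at -0.036 to 0.020. The pair of replicate 1 was the highest, and a shared batch was not tested. Alternatives were RLE factors, library size alone, no filter, a mean count of at least 50, DESeq2 1.42.0, voom (limma 3.58.1), robust dispersion, a replicate block, MuLV-int left out, and each library left out in turn.

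Named LTR peaks were to be every called one, the 4 highest tested of each family (2 in small families), the 5 with the smallest unadjusted p in each direction, the highest of each element name with 3 or more peaks, and the 6 highest within 500 bp of a start. Of those by element name with 3 to 9 peaks, most are given as a summary. Of the silencing genes, the 4 with the smallest p are named. Trim28, Setdb1, Zfp809, the zinc finger cluster peaks, those highest per length and those at Cdh5, Tek, Tie1, Hnrnpa3 and Dhx40 were added after their values were seen. The members and lists were chosen with earlier results of these data known.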

Additional observations from a re-analysis of the deposited data

How the results depend on the processing

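No LTR peak was called under any of the 15 alternatives. The smallest adjusted p among them was 0.072, at the Adora1 RLTR17B_Mm peak without WT replicate 1. The replicate block gave 0 calls too, with a smallest adjusted p of 0.095. It put 36 LTR peaks at an unadjusted p under 0.05 (9.0%, against 7.07% of all tested peaks). That count was 34 in the test as reported (8.5% against 7.08%) and 16 with DESeq2 (4.0% against 3.51%). With a mean count of at least 50 it was 5 (20% of the 25 LTR peaks tested, against 5.97% of all peaks). With single libraries left out it was 35 to 42, on 438 to 455 tested LTR peaks. These were 7.9% to 9.5% of LTR peaks, against 5.5% to 7.9% of all tested peaks. The median LTR log2 fold change, 0.0029, became 0.024 with library size alone, which moved the median of all peaks to 0.021, and 0.017 without a filter. It was -0.043 to 0.0036 with single libraries left out. Family medians lay near 0 and changed sign in places. With single libraries left out they ran from -0.058 to 0.061 for ERV1, -0.055 to 0.072 for ERVK (lowest without WT replicate 1), -0.14 to 0.0085 for ERVL and -0.021 to 0.0077 for ERVL-MaLR. ERV1 became -0.032 with voom, and ERVL-MaLR 0.028 without a filter. With a mean count of at least 50 they were -0.24 for ERV1, 0.26 for ERVK, 0.020 for ERVL and 0.054 for ERVL-MaLR. Of 720 values for 50 named peaks, 34 at 14 peaks changed sign and none passed the threshold. The Pwp1 RMER15 peak turned to 0.011 with library size alone, 0.020 with a mean count of at least 50, 0.0053 with DESeq2, 0.0082 with voom and 0.035 with the replicate block, and the Emcn peak to 0.0037 with a mean count of at least 50. With single libraries left out, signs turned at Pwp1 (-0.21 to 0.16), Emcn (-0.15 to 0.11), Zfp808 (-0.20 to 0.17), Zfp935 (-0.22 to 0.42), 2310001H17Rik (-0.18 to 0.14), Gpr65 (-0.084 to 0.21), Zfp934 (-0.35 to 0.16), Zfp931 (-0.074 to 0.49), Mta3 (-0.048 to 0.55), Mtpap (-0.13 to 0.54), Exog (-0.47 to 0.049), 5430421F17Rik (-0.26 to 0.039), Rbm19 (-0.55 to 0.15) and Cav1 (-0.077 to 0.35). The causes were not tested. The median tested LTR peak had 21.1 counts per library, which gave an SE of 0.37 on the log2 scale.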
